A study of Mus musculus with 9 samples.

Results

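The heat shock genes described here were the rows of the 9 count tables whose symbol was Hspa1a, Hspa1b, Hspa8, Hsph1, Dnajb1, Hsp90aa1, Hspb1, Hspd1, Hspe1 or Hsf1, which gave 10 of 24421 genes. They were measured in laser-induced choroidal neovascularization of the mouse, in which a burn breaks the Bruch membrane and vessels grow in from the choroid. All animals were 8-week-old males with 4 burns per eye, and each injected eye received 5 µg of a reagent in the vitreous. Fc, an antibody fragment, was the control. ABTAA is an antibody to angiopoietin 2 that also switches on Tie2, a receptor of endothelial cells. VEGF Trap is a decoy receptor that takes up free VEGF. The sources used here give neither the strain nor the interval from burn or injection to collection. The lesion with a rim of retinal pigment epithelium and choroid was cut out by laser capture, and RNA was counted from the 3 prime ends of transcripts, with 3 libraries per group. The labels do not say which animals or eyes went into which library, and p-values therefore describe only how far these samples spread, which could be technical. Fc libraries were assigned by title; the headings inside their tables instead name controls of a knockout.

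Heat shock proteins are chaperones that hold, fold or disaggregate other proteins. Their cytosolic members are induced when unfolded proteins release the transcription factor HSF1, encoded by Hsf1, from chaperones; trimers of HSF1 then bind heat shock elements, which are alternating blocks of GAA and TTC, in the promoters of their targets. Hspa1a and Hspa1b encode the stress-inducible HSP70, Hspa8 its constitutive relative, Hsp90aa1 the inducible form of HSP90 and Hspb1 a small heat shock protein that binds actin filaments and unfolded proteins. Dnajb1 encodes a J protein that feeds clients to HSP70, and Hsph1 an HSP110 that exchanges its nucleotide. Hspd1 and Hspe1 encode the barrel and the lid of the mitochondrial chaperonin. In the eye, chaperones are known for protecting the pigment epithelium and the lens against heat, light and oxidative stress.

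The sequences below are shown because they carry the heat shock element letters of these genes. RefSeq promoter windows on GRCm38.p6, from 250 bases before to 50 bases after an annotated start, matched 7 of the 10 genes; Hspa8, Hsp90aa1 and Hsf1 had no entry. Each window was searched for GAANNTTC and for TTCNNGAA, in which N is any base. Both read the same on either strand, and matches may overlap. Capitals mark the bases inside a match, and all sequences run 5′ to 3′ along the gene's strand.
Hspa1a, chr17:34972157-34972306, minus strand: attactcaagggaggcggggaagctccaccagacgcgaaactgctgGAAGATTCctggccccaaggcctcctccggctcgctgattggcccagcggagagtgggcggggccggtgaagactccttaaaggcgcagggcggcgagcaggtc
Hspb1, chr5:135887769-135887918, plus strand: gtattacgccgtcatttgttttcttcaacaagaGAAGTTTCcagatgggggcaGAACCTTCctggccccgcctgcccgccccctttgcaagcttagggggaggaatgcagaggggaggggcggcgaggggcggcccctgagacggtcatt
Hsph1, chr5:149636279-149636308, minus strand: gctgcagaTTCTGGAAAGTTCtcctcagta
Hspd1, chr1:55088053-55088082, minus strand: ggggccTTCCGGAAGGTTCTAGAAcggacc
Hspe1, chr1:55088053-55088082, plus strand: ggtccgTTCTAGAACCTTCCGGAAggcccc
The Hspa1a and Hspb1 stretches are the 150 bases before the start, and the others are 30 bases around a run of matches. The Hspa1b stretch of the same length, chr17:34959239-34959388 on the minus strand, differed from that of Hspa1a at 1 base and held the same match.

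Hspd1 and Hspe1 are neighbours transcribed away from each other, and the stretches shown for them are the 2 strands of the same DNA. In it 3 overlapping matches formed 2 runs of 3 alternating blocks. The run lay at bases -144 to -127 from 1 annotated start of Hspd1 and at bases -89 to -72 from that of Hspe1, counted with -1 as the base before the start. A second window of Hspd1, around a start farther upstream, held no match. Hsph1 held 3 matches and 1 run of 3 blocks, from base 16 to base 28 in the window shown. Hspb1 held 2 matches, which begin at bases -117 and -97, and Hspa1a and Hspa1b 1 each, from base -104 to base -97. Dnajb1 held none in either of its windows. Of 32851 RefSeq windows of the same length, 15.1% held at least 1 match and 0.603% a run of 3 blocks. A match describes letters only; binding of HSF1 was not measured.

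**Figure D1:**
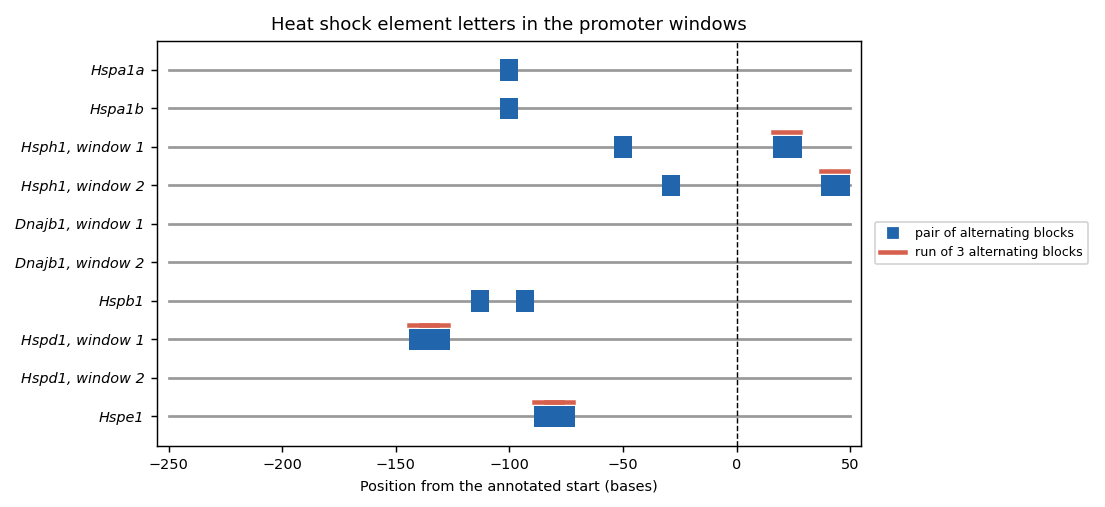
Positions of heat shock element letters in the promoter windows of 7 genes. The horizontal axis gives bases from the annotated start (dashed line), blue boxes are matches of 2 alternating blocks and red bars runs of 3 blocks. The windows of Hspd1 (first start), Hspe1 and Hsph1 hold a run, and those of Dnajb1 hold no match.

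Across the 3 groups the mitochondrial chaperonin gene Hspd1 was the member that passed the test: it fell by 31.8% in ABTAA and fell by 33.5% in VEGF Trap against Fc. The constitutive Hspa8 stood lower and Hspb1 higher than Fc in every library of both treated groups without passing it. The stress-inducible pair Hspa1a and Hspa1b was scarce in all 9 libraries, with estimates above Fc in ABTAA and below Fc in VEGF Trap that their spread did not separate from 0. Hsf1, Hsph1 and Dnajb1 overlapped Fc in both comparisons. Tests were made with edgeR's quasi-likelihood test with Benjamini-Hochberg adjustment over 14054 genes and a threshold of 0.05 (adjusted p), and all 10 members passed the filter on low counts. Levels are CPM, counts scaled to the library's TMM-adjusted total. Since 3 prime ends were counted and lengths and capture differ between genes, levels are compared between groups and not between genes.

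Total counts were 6335805 to 14439835 per library, and the limit set by 3 counts was 0.209 to 0.469 CPM (counting error only). The row Rn45s alone took 10.1% to 11.8% of the total in Fc, 11.7% to 13.1% in ABTAA and 12.9% to 15.8% in VEGF Trap, highest in VEGF Trap 1. Its part in the results below was not tested. Defining markers of the labelled tissue were present: all 10 pigment epithelium and all 12 endothelial markers passed the filter, with summed levels of 1773 to 2670 and 1842 to 2963 CPM. Of the 10 pigment epithelium markers, 1 was called against Fc in ABTAA and 0 in VEGF Trap. Markers of these and other tissues differed between the groups. All 12 skeletal muscle markers passed the filter and none was at 0 in every library; their summed level was 107 to 160 CPM in Fc, 232 to 485 in ABTAA and 217 to 385 in VEGF Trap, with 9 of 12 called against Fc in ABTAA and 3 of 12 in VEGF Trap. Of the 12 endothelial markers, 5 were called in ABTAA (summed 1842 to 2341 CPM in Fc, 2812 to 2963 in ABTAA, 2153 to 2375 in VEGF Trap) and 0 in VEGF Trap. Of 12 macrophage markers, 2 were called in ABTAA (1894 to 2077, 1479 to 1730 and 1778 to 2065 CPM in the same order) and 0 in VEGF Trap. Of 7 melanocyte and pigment markers, all of which passed the filter, 1 was called in ABTAA and 2 in VEGF Trap; their sum was 2105 to 2403 CPM in Fc, 2769 to 2836 in ABTAA and 2215 to 4006 in VEGF Trap, highest in VEGF Trap 1. Of 8 neutrophil markers 3 passed the filter and 1, Elane, was at 0 in every library; 1 was called in ABTAA and 0 in VEGF Trap, and the sum was 82.4 to 510.2 CPM in Fc, highest in Fc 1, 44.3 to 56.1 in ABTAA and 46.8 to 97.3 in VEGF Trap. The summed Schwann cell markers (382 to 461 CPM in Fc, 481 to 527 in ABTAA, 452 to 509.6 in VEGF Trap) and smooth muscle and pericyte markers (828 to 1043, 1052 to 1385 and 743 to 1060) lay above Fc in ABTAA with 0 called of 7 and of 10. In bulk tissue, fewer cells of a type and less RNA per cell cannot be told apart, and the part of these shifts in the results below was not tested.

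**Figure D2:**
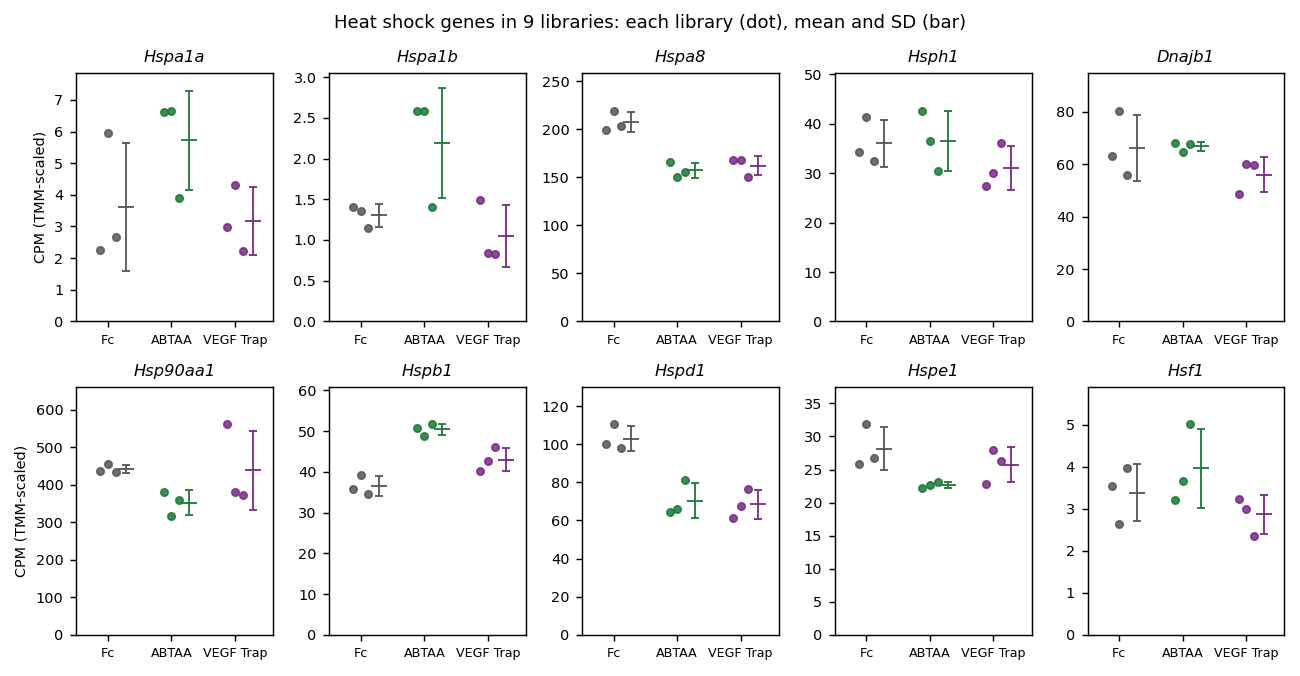
TMM-scaled CPM of the 10 heat shock genes (vertical axis, from 0, a scale for each gene) in Fc, ABTAA and VEGF Trap. Dots are single libraries, and the bar beside them gives the mean and SD of 3. The Fc dots of Hspd1 and Hspa8 lie above all treated dots, and those of Hspb1 below them.

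The comparison of ABTAA with Fc addresses the effect of Tie2 activation together with angiopoietin 2 binding. Of the 10 members, 0 rose and 1 fell, against 1.4% of all tested genes called in either direction. At an unadjusted p under 0.05 there were 5 members (16.9% of all genes). In 6 members the ABTAA and Fc libraries did not overlap, 2 higher and 4 lower, where 23% of all genes had no overlap. The median log2 fold change of the 10 was 0.02, and that of all genes was -0.003; the median size without sign was 0.36 for the members and 0.23 for all genes.

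VEGF Trap against Fc asks the same of VEGF blockade, and uses the same 3 Fc libraries, so that the comparisons are not independent of each other. Again edgeR called 0 members higher and 1 lower, with 1.02% of all genes called. There were 2 members at an unadjusted p under 0.05 (15.4% of all genes), and 3 without overlap, 1 higher and 2 lower (20.9% of all genes). Their median log2 fold change was -0.22, where that of all genes was 0.001. Of the 10 estimates 9 lay below 0 here, and 4 did in ABTAA. Among the 9, Hsp90aa1 lay at -0.01 ± 0.14 (SE). Its sign changed in 4 of 21 alternatives, and that of Hspa1a in 3 of 19.

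**Figure D3:**
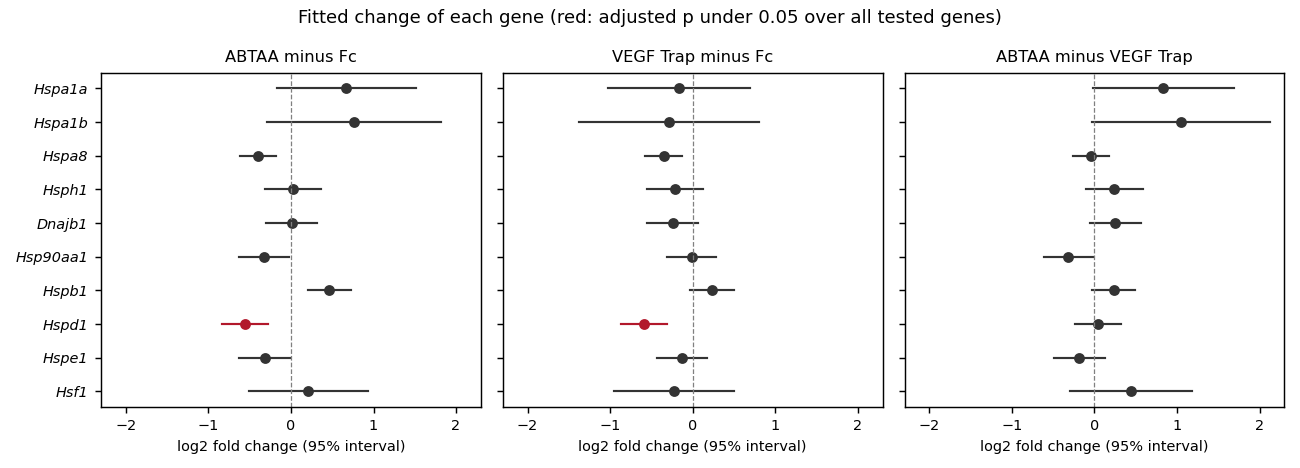
Fitted log2 fold change (horizontal axis) of each heat shock gene with its 95% interval in the 3 comparisons. Red marks an adjusted p under 0.05 over all tested genes, which holds for Hspd1 against Fc in both treated groups (-0.55 and -0.59) and for no gene between the treatments.

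Hspd1 (ENSMUSG00000025980, minus strand, chromosome 1 from 55077835 to 55088243 on GRCm38, the build mm10) encodes HSP60, the barrel in which imported mitochondrial proteins fold. It had 100.2, 110.4 and 98.1 CPM in the 3 Fc libraries, 64.2, 65.8 and 81.0 CPM in ABTAA and 61.4, 67.6 and 76.5 CPM in VEGF Trap. Every treated library lay below every Fc library, and the treated groups overlapped each other. The means were 103 ± 6.57 CPM in Fc, 70.3 ± 9.29 in ABTAA and 68.5 ± 7.59 in VEGF Trap (SD, n = 3 each). Against Fc it fell by 0.55 ± 0.13 on the log2 scale in ABTAA (SE, adjusted p = 0.0497, edgeR) and by 0.59 ± 0.13 in VEGF Trap (SE, adjusted p = 0.0460, edgeR). In order of the unadjusted p it stood at place 193 of 14054 genes in ABTAA against Fc.

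Both Hspd1 calls lay close to the threshold. In each comparison the direction held in 21 of 21 alternatives and the call in 11 of 21, and log2 fold changes ran from -0.66 to -0.48 in ABTAA and from -0.67 to -0.51 in VEGF Trap. The adjusted p in ABTAA was 0.0962, 0.191 and 0.0980 without Fc 1, Fc 2 and Fc 3, 0.135 and 0.212 without ABTAA 1 and ABTAA 2, and 0.0672 and 0.0516 without VEGF Trap 2 and VEGF Trap 3. In VEGF Trap it was 0.104, 0.184 and 0.0925 without Fc 1, Fc 2 and Fc 3, 0.0607 without ABTAA 2, and 0.0979, 0.0947 and 0.0730 without VEGF Trap 1, VEGF Trap 2 and VEGF Trap 3. With DESeq2 it was 0.00315 in ABTAA and 0.00127 in VEGF Trap. The transcript used for Hspd1 has 46.8% G and C, and its last 200 bases have 41.00%. Genes of similar transcript GC content (44.3% to 48.3%) had a median log2 fold change of -0.07 in ABTAA and -0.05 in VEGF Trap. With an offset for GC content of the transcript the Hspd1 value was -0.48 (adjusted p = 0.0955, edgeR) and -0.53 (adjusted p = 0.0733).

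Hspe1 (plus strand, chromosome 1 from 55088132 to 55091307) encodes HSP10, the lid of the same chaperonin. Its levels were 25.9, 31.8 and 26.8 CPM in Fc, 22.2, 22.6 and 23.2 CPM in ABTAA, and 22.8, 28.01 and 26.3 CPM in VEGF Trap. All ABTAA libraries lay below all Fc libraries, within a narrow range of their own, while VEGF Trap overlapped both groups. The log2 fold change was -0.32 ± 0.14 in ABTAA (SE, adjusted p = 0.287, edgeR) and -0.13 ± 0.14 in VEGF Trap (adjusted p = 0.716), so that neither passed. The genes overlap at their 5 prime ends alone, and the 3 prime ends that were counted lie apart. The last 200 bases of the Hspe1 transcript have 1 near-identical copy over 179 aligned bases, not analysed here, and those of Hspd1 have none.

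**Figure D4:**
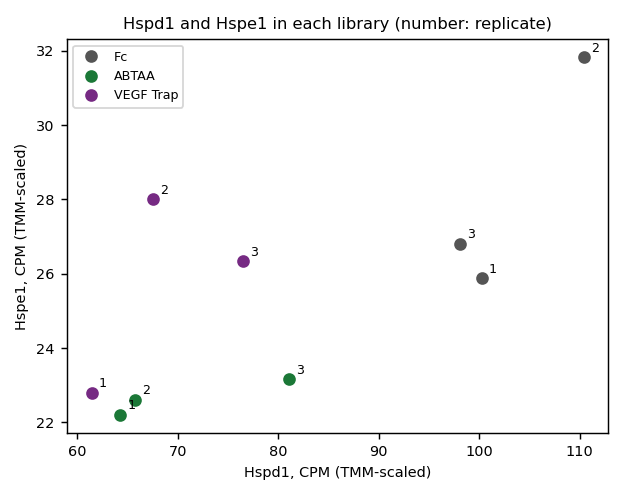
Hspd1 (horizontal axis) and Hspe1 (vertical axis) in TMM-scaled CPM, 1 point per library, coloured by group and numbered by replicate; neither axis starts at 0. The Fc points stand to the right at 98.1 CPM of Hspd1 and above, and the 6 treated points lie at 81.0 CPM and below.

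Pearson's r of Hspd1 with Hspe1 over all 9 libraries was 0.71 (exact permutation p = 0.0359, two-sided, 0.0791 adjusted over 3 pairs). Spearman's rho was 0.70. These values hold the difference between Fc and the treated groups. Because the Fc libraries stood apart in Hspd1, its relation to Hspe1 was also taken within the treated libraries and within groups. Over the 6 treated libraries Pearson's r was 0.29 (exact permutation p = 0.610, two-sided) and Spearman's rho 0.60. On deviations from the group means of all 9 libraries r was 0.59 (exact permutation p = 0.0880, 0.132 adjusted over 3 pairs). A relation between barrel and lid of the chaperonin beyond the group difference was thus not detected with these numbers of libraries.

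Hspa8 (plus strand, chromosome 9 from 40800984 to 40810087) encodes HSC70, which folds new proteins and strips clathrin from vesicles without need of stress. It had 199, 219 and 204 CPM in Fc, 166, 150.7 and 155 CPM in ABTAA, and 168, 168 and 150.7 CPM in VEGF Trap. Every treated library lay below every Fc library. The difference was -0.40 ± 0.10 (SE, adjusted p = 0.0665, edgeR) in ABTAA and -0.35 ± 0.10 (adjusted p = 0.104) in VEGF Trap on the log2 scale, which falls short of the threshold. DESeq2 called Hspa8 lower in both comparisons (adjusted p = 0.00437 and 0.0136), and limma-voom in ABTAA alone (adjusted p = 0.0394). Within the last 200 bases of Hspa8, 7 other genes hold a near-identical stretch, not analysed here. That of Gm26825 runs over 202 aligned bases on the opposite strand, and the others cover 117 or 118 bases on the same strand. The sources do not say how reads that match more than 1 place were treated.

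Hspa1a (minus strand, chromosome 17 from 34969190 to 34972156) and Hspa1b (minus strand, chromosome 17 from 34956436 to 34959238) lie side by side and had 16 to 70 and 6 to 26 counts per library. Hspa1a had 2.24, 5.94 and 2.67 CPM in Fc, 6.61, 6.64 and 3.91 CPM in ABTAA, and 2.98, 4.32 and 2.22 CPM in VEGF Trap. ABTAA 1 and ABTAA 2 held the highest values, and Fc 2 came next to them, apart from the other Fc libraries. Hspa1b had 1.40, 1.36 and 1.15 CPM in Fc, 2.58, 2.58 and 1.41 CPM in ABTAA, and 1.49, 0.836 and 0.832 CPM in VEGF Trap. Its ABTAA libraries all lay above Fc, the third by a margin far inside the counting error: the 9 counts of ABTAA 3 allow 0.643 to 2.67 CPM, and the 15 counts of Fc 1 allow 0.783 to 2.31 CPM (95% exact Poisson intervals, counting error only).

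The transcripts of the pair are 99.1% identical over 2200 aligned bases, although their last 200 bases are not copies of each other, so their counts were also summed. The sum was 3.64, 7.30 and 3.82 CPM in Fc, 9.19, 9.22 and 5.32 CPM in ABTAA, and 4.48, 5.16 and 3.05 CPM in VEGF Trap. The lowest ABTAA library lay above the highest VEGF Trap library, and Fc 2 lay within the ABTAA range. Against Fc the log2 fold change of the sum was 0.70 ± 0.33 in ABTAA (SE, adjusted p = 0.302, edgeR) and -0.20 ± 0.34 in VEGF Trap (adjusted p = 0.839). For the single genes it was 0.67 ± 0.40 (Hspa1a) and 0.77 ± 0.50 (Hspa1b) in ABTAA, and -0.16 ± 0.40 and -0.29 ± 0.51 in VEGF Trap, with adjusted p-values of 0.422 to 0.901. The transcripts of Hspa1a and Hspa1b have 58.95% and 58.12% G and C, but their last 200 bases have only 41.00% and 31.50%. Genes whose transcripts have 55.9% or more had a median log2 fold change of 0.17 in ABTAA and 0.14 in VEGF Trap. This grouping used the whole transcript, while 3 prime ends were counted. Without Fc 2 the Hspa1a value in ABTAA moved to 1.22 and that in VEGF Trap turned to 0.39. Hspa1a supplied 61.5% to 83.8% of the summed counts in the 9 libraries. Across them the 2 genes had r = 0.66 (exact permutation p = 0.0527, 0.0791 adjusted over 3 pairs) and rho = 0.62, and r = 0.42 without ABTAA 2 and VEGF Trap 3, the libraries farthest from the median of Hspa1a on the scale of log2(CPM + 0.5). On deviations from the group means r was 0.36 (exact permutation p = 0.296, also 0.296 adjusted over 3 pairs). An exon of Gm20481 lies on the strand opposite Hspa1a, and the sources used here do not say whether counting used strand.

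Dnajb1 (plus strand, chromosome 8 from 83608193 to 83612653) had 63.0, 80.3 and 55.7 CPM in Fc, 68.0, 64.9 and 67.6 CPM in ABTAA, and 48.6, 60.1 and 59.6 CPM in VEGF Trap. Fc alone spanned most of that range. Its log2 fold change was 0.01 ± 0.15 in ABTAA (SE, adjusted p = 0.986, edgeR; 95% interval -0.30 to 0.32) and -0.24 ± 0.15 in VEGF Trap (adjusted p = 0.459). All of its 9 counts were even, as 2058 of the 14167 genes counted in every library shared a divisor above 1; division by it ended no member's call. Hsph1 (minus strand, chromosome 5 from 149614287 to 149636376) had 34.3, 41.3 and 32.5 CPM in Fc, 42.6, 36.5 and 30.5 CPM in ABTAA, and 27.4, 29.96 and 36.0 CPM in VEGF Trap. The groups overlapped throughout, with log2 fold changes of 0.02 ± 0.16 in ABTAA (SE, 95% interval -0.32 to 0.37) and -0.22 ± 0.16 in VEGF Trap (adjusted p = 0.567, edgeR). The signs of the Dnajb1 and Hsph1 values in ABTAA turned with library totals as the scaling (-0.03 and -0.02).

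Hsp90aa1 (minus strand, chromosome 12 from 110690605 to 110702728) encodes HSP90 alpha, which holds kinases and steroid receptors in a state ready for activation. Its levels were 437, 454 and 433 CPM in Fc, 380.2, 316 and 359 CPM in ABTAA, and 561, 379.9 and 373 CPM in VEGF Trap. All ABTAA libraries lay below all Fc libraries, and so did VEGF Trap 2 and VEGF Trap 3, whereas VEGF Trap 1 was the highest of the 9. The log2 fold change was -0.33 ± 0.14 in ABTAA (SE, adjusted p = 0.253, edgeR) and -0.01 ± 0.14 in VEGF Trap (adjusted p = 0.983), and without VEGF Trap 1 the latter was -0.22. VEGF Trap 1 also held the highest summed lens markers, 67.2 CPM against 14.8 to 27.9 in the other libraries, and the highest summed photoreceptor markers, 166 CPM against 35.6 to 101; the part of these in the Hsp90aa1 value was not tested.

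Hspb1 (plus strand, chromosome 5 from 135887919 to 135889563) had 35.7, 39.2 and 34.5 CPM in Fc, 50.7, 48.9 and 51.6 CPM in ABTAA, and 40.3, 42.6 and 46.0 CPM in VEGF Trap. The 3 groups did not overlap, and their order was Fc, VEGF Trap and ABTAA. The log2 fold change was 0.47 ± 0.12 in ABTAA (SE, adjusted p = 0.0698, edgeR) and 0.24 ± 0.12 in VEGF Trap (adjusted p = 0.388), neither past the threshold. DESeq2 and limma-voom called it higher in ABTAA (adjusted p = 0.0151 and 0.0476). The Hspb1 transcript has 61.7% G and C, and its last 200 bases have 51.00%. Genes whose whole transcripts have 55.9% or more had a median log2 fold change of 0.17 in ABTAA and 0.14 in VEGF Trap. With an offset for GC content of the transcript the Hspb1 values were 0.23 and 0.06, the lowest of 21 alternatives in each comparison. With an offset for GC content of the last 200 bases Hspb1 was not called in either.

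Hsf1 (plus strand, chromosome 15 from 76477422 to 76501913), the regulator of the response, had 17 to 52 counts per library. It had 3.55, 2.63 and 3.97 CPM in Fc, 3.20, 3.67 and 5.01 CPM in ABTAA, and 3.23, 3.00 and 2.36 CPM in VEGF Trap, and the groups overlapped. Its log2 fold change was 0.21 ± 0.34 in ABTAA (SE, adjusted p = 0.815, edgeR; 95% interval -0.51 to 0.94) and -0.23 ± 0.34 in VEGF Trap (adjusted p = 0.807; -0.96 to 0.50). Both values moved with single libraries: in ABTAA the value was 0.02 without ABTAA 3, 0.06 without Fc 2 and up to 0.34 without ABTAA 1 or Fc 3, and in VEGF Trap it ran from -0.38 without Fc 2 to -0.12 without VEGF Trap 3 and -0.10 without Fc 3, with no call. The Hsf1 transcript has 57.79% G and C, and its last 200 bases have 45.50%. Genes whose whole transcripts have 55.9% or more had a median log2 fold change of 0.17 in ABTAA and 0.14 in VEGF Trap. HSF1 is regulated mainly at the level of the protein, which was not measured. Across the 9 libraries Hsf1 had no detectable relation to the mean of the other 9 members, with r = -0.05 (exact permutation p = 0.895, also 0.895 adjusted over 3 pairs) and rho = 0.17. Without ABTAA 3 and VEGF Trap 3 r was -0.47, and on deviations from group means it was -0.76 (exact permutation p = 0.0602, 0.132 adjusted).

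ABTAA and VEGF Trap were also compared directly. In this comparison edgeR called 0 of the 10 members and 0% of all genes, and DESeq2 and limma-voom also called 0 members and 0% of all genes. At an unadjusted p under 0.05 stood 1 member, Hsp90aa1, against 5.06% of all genes. Dnajb1 and Hspb1 were the 2 members without overlap, both higher in ABTAA, where 9.88% of all genes had no overlap. The largest estimates were those of the stress-inducible pair, at 1.05 ± 0.51 for Hspa1b, 0.83 ± 0.40 for Hspa1a (SE, log2, both adjusted p = 0.956, edgeR) and 0.89 ± 0.34 for their sum (adjusted p = 0.946). Hspd1 differed by 0.04 ± 0.13 (95% interval -0.24 to 0.32), so that a difference of the size it had against Fc lay outside the interval. For Hspa8 the difference was -0.04 ± 0.10 (95% interval -0.27 to 0.18), and for Hsp90aa1 it was -0.32 ± 0.14 (adjusted p = 0.956), which moved to -0.10 without VEGF Trap 1 (adjusted p = 0.998).

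The other genes of these pathways were taken from 9 lists of 118 genes, of which 114 were tested. Against Fc, 3 rose and 2 fell in ABTAA, and 1 rose and 1 fell in VEGF Trap, which is 4.39% and 1.75% of those tested, beside the 1.4% and 1.02% of all genes. Because the lists were chosen with earlier results of these data known, these shares do not test the lists as sets. DESeq2 called 4 higher and 5 lower in ABTAA and 2 higher and 7 lower in VEGF Trap, and limma-voom 3 and 4, and 1 and 3; of all genes DESeq2 called 7.29% and 7.75% of those it gave an adjusted p, and limma-voom 2.92% and 1.72%. At an unadjusted p under 0.05 (edgeR) stood 20 of the 114 in ABTAA and 22 in VEGF Trap, where all genes gave 16.9% and 15.4%. Between the treatments each of the 3 tools called 0 list genes, where 6 had an unadjusted p under 0.05 (edgeR). List medians against Fc lay between -0.21 and 0.42 on the log2 scale, and both of these ends belonged to the small heat shock proteins. Of these 7 of 9 were tested, and the median was the value of Hspb6 in both comparisons, which did not pass.

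Among the small heat shock proteins, Hspb8, which works with Bag3 in the removal of misfolded proteins, was lower in both treated groups. It had 110.3, 118 and 114 CPM in Fc, 72.8, 66.9 and 89.2 CPM in ABTAA, and 64.6, 75.7 and 65.9 CPM in VEGF Trap. All treated libraries lay below all Fc libraries, with log2 fold changes of -0.58 ± 0.13 in ABTAA (SE, adjusted p = 0.0424, edgeR) and -0.73 ± 0.13 in VEGF Trap (adjusted p = 0.0250). The Hspb8 call ended without any 1 of Fc 1, Fc 2, Fc 3, ABTAA 1, ABTAA 2 and VEGF Trap 2 in ABTAA (adjusted p = 0.0502 to 0.196) and of Fc 1, Fc 2, Fc 3, VEGF Trap 1 and VEGF Trap 3 in VEGF Trap (0.0543 to 0.120). Hspb7, a small heat shock protein of heart and skeletal muscle, rose by 1.41 ± 0.33 in ABTAA (adjusted p = 0.0477), from 1.53 to 3.97 CPM in Fc to 6.40 to 9.32 CPM, together with the summed skeletal muscle markers given above. Its call ended without any 1 of the Fc or ABTAA libraries, VEGF Trap 2 or VEGF Trap 3 (adjusted p = 0.0516 to 0.195). It also ended with library totals (0.0526), only the compared groups (0.0541) and offsets for GC content of the transcript (0.0821) or of its last 200 bases (0.0739), and held in 8 of 20 alternatives. In VEGF Trap Hspb7 had 5.68 to 6.83 CPM, above every Fc library, and its value on the log2 scale was 1.07 ± 0.33 (SE; edgeR's adjusted p = 0.118), which did not pass. At an unadjusted p under 0.05 (edgeR) stood 2 of the 7 small heat shock proteins in ABTAA and 5 of 7 in VEGF Trap, beside 16.9% and 15.4% of all genes. These counts do not test the list as a set. Besides Hspb7 and Hspb8 the latter were Hspb2 at 0.62, Hspb6 at 0.42 and Cryaa at 3.16 (adjusted p = 0.177, 0.258 and 0.109, edgeR). The 5 differed in direction, with Hspb8 alone below Fc. Unc45b, a myosin chaperone, had 0.78 ± 0.23 in ABTAA (adjusted p = 0.0937) and did not pass. Cryaa, the lens alpha crystallin, had 24.6 CPM in VEGF Trap 1 and at most 3.74 CPM elsewhere, and ABTAA 2 and ABTAA 3 held 0 counts of it. Its counts in the other libraries were all multiples of 3.

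Of the 10 HSP70 and HSP110 relatives, 1 fell in ABTAA and 0 passed in VEGF Trap. Hspa4, an HSP110 that exchanges the nucleotide of HSP70, had 127, 143 and 137 CPM in Fc, 101, 83.6 and 92.6 CPM in ABTAA, and 106, 96.4 and 107 CPM in VEGF Trap. Again no treated library reached the Fc range, and the log2 fold change was -0.55 ± 0.11 in ABTAA (SE, adjusted p = 0.0359, edgeR) and -0.40 ± 0.11 in VEGF Trap (adjusted p = 0.0949). The ABTAA call of Hspa4 ended without any 1 Fc or ABTAA library (adjusted p = 0.0521 to 0.175). Hspa5, the HSP70 of the endoplasmic reticulum, had values of -0.33 ± 0.09 (adjusted p = 0.0736) and -0.37 ± 0.09 (adjusted p = 0.0593). Of 20 genes of the unfolded protein response, a list that also holds Hspa5, 0 passed in either comparison, where 4 had an unadjusted p under 0.05 in ABTAA and 3 in VEGF Trap (edgeR; 16.9% and 15.4% of all genes); DESeq2 called 2 in each and limma-voom 1 in each.

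No gene passed among 14 HSP90 relatives and cochaperones, 22 J proteins and nucleotide exchange factors, 14 subunits and helpers of the cytosolic chaperonin, 11 genes of mitochondrial protein quality control and 8 tested heat shock factors and regulators. In those lists, at an unadjusted p under 0.05, stood 3, 6, 1, 0 and 2 genes in ABTAA and 3, 5, 3, 0 and 0 in VEGF Trap (edgeR), to be read against the 16.9% and 15.4% of all genes. DESeq2 called 2 genes of the HSP90 list and 1 J protein in ABTAA, 1 and 3 in VEGF Trap and 0 in the other 3 lists, and limma-voom called 1 J protein in each and 0 elsewhere. The nearest to the threshold was Dnajc5, the J protein of synaptic vesicles, at -0.44 ± 0.11 in ABTAA (SE, adjusted p = 0.0527, edgeR) and -0.44 ± 0.11 in VEGF Trap (adjusted p = 0.0577). Among the mitochondrial genes, which work beside Hspd1, Hspa9 (the mitochondrial HSP70) had 0.24 ± 0.13 in ABTAA (adjusted p = 0.361) and Clpp (a matrix protease) 0.27 ± 0.14 (adjusted p = 0.326), neither past the threshold. Of 17 immediate early genes, which answer stress and growth signals within minutes, 2 rose in ABTAA and 1 in VEGF Trap. These were Jund, at 0.50 ± 0.11 (adjusted p = 0.0473) and 0.59 ± 0.11 (adjusted p = 0.0322), and Egr3 in ABTAA at 0.86 ± 0.20 (adjusted p = 0.0473). All Jund counts were even and all Egr3 counts multiples of 3, so reads may have been counted more than once. After division by the common divisor the calls held, with edgeR's adjusted p at 0.0382 and 0.0239 for Jund and 0.0458 for Egr3. The list medians were -0.02 and -0.01. An unadjusted p under 0.05 was found for 3 of the 17 in each comparison (edgeR), beside the 16.9% and 15.4% of all genes. Both Jund calls ended without any 1 Fc library, and that in ABTAA also without VEGF Trap 2 or 3 or ABTAA 1 or 2 (adjusted p = 0.0516 to 0.180) and that in VEGF Trap also without VEGF Trap 1 or 3 (0.0598 to 0.162); with an offset for GC content Jund was at 0.18 in ABTAA (adjusted p = 0.539) and 0.37 in VEGF Trap (adjusted p = 0.177), and neither passed. The ABTAA call of Jund also ended with library totals (0.0516) and with an offset for GC content of the last 200 bases (0.0659). The Egr3 call ended without any 1 Fc library, ABTAA 1 or ABTAA 2 (adjusted p = 0.0700 to 0.161) and with the offset for GC content of the transcript (0.0684), as did that of Hspa4 (0.0684); the Hspb8 call in ABTAA then had 0.0505.

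**Figure D5:**
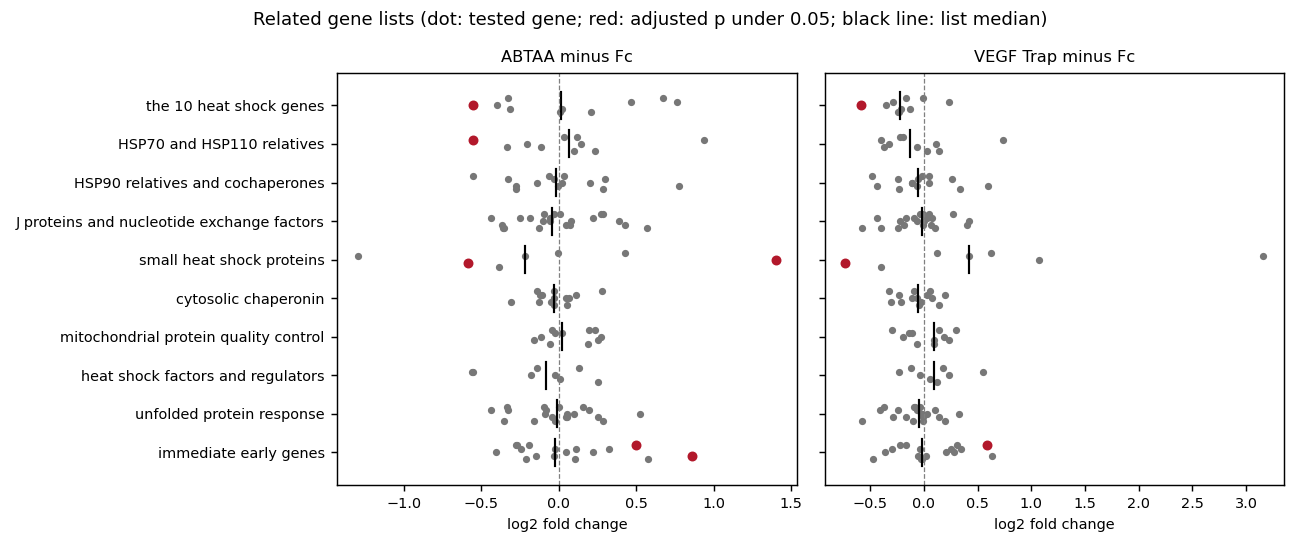
Log2 fold change against Fc (horizontal axes, different ranges) of every tested gene of the 10 heat shock genes and 9 related lists, in ABTAA and VEGF Trap. Each dot is a gene, red dots have an adjusted p under 0.05 and black lines are list medians, which stay near 0 except in the small heat shock proteins (-0.21 and 0.42) and the heat shock genes in VEGF Trap (-0.22).

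The members also differed in how tightly replicates agreed. The SD within groups, on the log2 scale, was 0.08 for Hspb1 and 0.08 for Hspa8, above that of only 4.2% and 7.6% of the 500 genes nearest to each in abundance. Hsp90aa1 (0.21) and Hspa1a (0.55) were more variable than 88.6% and 81% of theirs. Hspd1, at 0.15, exceeded 43% of its neighbours. The SD of Hsp90aa1 came mainly from VEGF Trap, at 106 CPM beside 11.2 CPM in Fc.

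By the fixed measure of likeness, Pearson's r of log2 CPM over the 9 libraries among 8473 genes, the gene whose pattern was most like Hspd1 was Cnbp (0.99), followed by Sgsh and Tomm70a (both 0.97). For Hsp90aa1 they were Sesn3 (0.98), Arid5b (0.98) and Fam208a (0.97). Aplp2 (0.96) stood first for Hspa8, Slc25a1 (0.98) for Hspb1, Dad1 (0.98) for Dnajb1 and Trim56 (0.95) for Hsph1. Pebp1 (0.95) was most like Hspe1 and Prkci (0.94) most like Hsf1, while Gzmm (0.93) and Slc25a20 (0.92) stood first for Hspa1a and Hspa1b. No member had the same first gene as another. The points share 9 libraries and their groups, and the highest of 8473 values is high by selection.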

How the data were processed

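The authors deposited raw counts, 1 value per gene symbol in each of 9 tables; per the submitters' processing notes, Bowtie2, edgeR and the mm10 build were used. The sources used here name no versions, annotation, counting tool, strand setting or rule for reads that match more than 1 place. After filterByExpr and TMM scaling, genes were fitted with edgeR 4.0.16 (quasi-likelihood, R 4.3.3) in 1 model of all 9 libraries with 6 residual degrees of freedom; the common biological coefficient of variation was 17.9%. P-values were adjusted by Benjamini-Hochberg over 14054 genes within each comparison. SEs were derived from the log2 fold change and its F statistic. In a simulated ABTAA against Fc comparison of 13839 tested genes, the fit called 43 of 49 genes set to a log2 change of -2, 46 of 50 set to 2, 23 of 47 set to -1, 28 of 50 set to 1 and 15 of 13643 left as they were. No change smaller than 1 in size was simulated, so recovery at the size of the Hspd1 values against Fc is not known.

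The members and the lists were chosen with earlier results of these data known. All members were named; from each list, genes past the threshold or, where fewer than 2 passed, the 2 smallest p-values were eligible, and not all of these are printed. Hikeshi was matched as l7Rn6, and Ly6g was not matched. Likeness used genes of at least 10 CPM and a pseudocount of 0.5 CPM. Copies were sought with BLAST+ 2.17.0 (at least 100 bases at 95% identity in the last 200 bases). Coordinates came from GENCODE M21.

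Alternatives were DESeq2 1.42.0, limma-voom (limma 3.58.1), RLE scaling, library totals, no filter, 10 counts in 6 libraries, only the compared groups, a replicate block, division by a common divisor, the summed Hspa1 pair and the omission of each library; offsets for GC content, of the transcript or of its last 200 bases, were chosen after seeing the data. Counts of replicates differed beyond sampling noise (chi-square over degrees of freedom 8.12 to 19.3), so none was merged.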

Additional observations from a re-analysis of the deposited data

How the results depend on the processing

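With 3 libraries a group and a median SE of 0.20 on the log2 scale over all genes, the calls lay near the limit of the design. Of the 10 members, 1 was called against Fc in each treated group; DESeq2 called 3 in ABTAA and 2 in VEGF Trap, and limma-voom 3 and 1, beside 7.29% and 7.75% of all genes with DESeq2 and 2.92% and 1.72% with limma-voom. The count was 0 in ABTAA with RLE scaling (Hspd1 adjusted p = 0.0524), 0 in VEGF Trap with only the compared groups (0.0527), and 0 in both with an offset for transcript GC content. With an offset for GC content of the last 200 bases it was 1 in ABTAA, where Hspa8 passed (adjusted p = 0.0445) and Hspd1 did not (0.0637), and 0 in VEGF Trap (0.0521). Without 1 library the count was 0 to 1 in each comparison with Fc, and between the treatments it was 0 in every alternative run.

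Of 618 member values under alternatives, 18 changed sign. In ABTAA against Fc these were Hsph1 at -0.0210 and Dnajb1 at -0.0322 with library totals, Dnajb1 at -0.0099 with the GC offset, and, with 1 library left out, Hsph1 at -0.1017 to -0.0105 in 3 of 9 omissions (over all 9, -0.1017 to 0.1342) and Dnajb1 at -0.1089 to -0.0048 in 3 (over all 9, -0.1089 to 0.1698). In VEGF Trap against Fc they were Hspa1a at 0.0195 with limma-voom, Hsp90aa1 at 0.0611 with the GC offset, and, with 1 library left out, Hspa1a at 0.0188 and 0.3894 (over all 9, -0.4579 to 0.3894) and Hsp90aa1 at 0.0086 to 0.0922 (over all 9, -0.2222 to 0.0922). Between the treatments Hspd1 turned to -0.0734 and -0.0395 without ABTAA 3 and without VEGF Trap 1 (range -0.0734 to 0.1222). Of the list genes, Hsf4 in VEGF Trap turned to -0.0699 without VEGF Trap 1 (range -0.0699 to 0.9192), and Clpx between the treatments to 0.1289 without VEGF Trap 3 (range -0.5329 to 0.1289). The cause was not tested. Other values in VEGF Trap against Fc moved by more than 1.5 times without a library and were not called with or without it: Dnajb1 ranged from -0.36 to -0.08, Hspa1b from -0.62 to -0.13, Hspe1 from -0.20 to -0.04 and Hsph1 from -0.33 to -0.11.

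Over all genes, 197 were called in ABTAA (119 higher, 78 lower) and 144 in VEGF Trap (72 and 72). DESeq2 called 717 and 673, limma-voom 411 and 242, and the fit with no filter 684, 616 and, between the treatments, 30; with only the compared groups 301 were called in ABTAA, with counts divided by a common divisor 249 in VEGF Trap, and with the GC offset 54 in ABTAA and, in VEGF Trap, 39 higher and 60 lower. Library totals moved the median of all genes by -0.05 and -0.08 and gave 66 higher and 106 lower in ABTAA and 39 and 182 in VEGF Trap. The part of the Rn45s shares given above in this was not tested. Without 1 library the counts were 0 to 373 and 7 to 144.

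Over all 9 libraries, which hold the difference between Fc and the treated groups, Hspd1 and Hspe1 had r = 0.71 (adjusted p = 0.0791, exact permutation). With library totals r was 0.7884 (adjusted p = 0.0432, exact permutation). Without 1 library it was 0.5160 to 0.8603, and the adjusted p was under 0.05 only without VEGF Trap 2 (0.0138). For Hspa1a and Hspa1b r was 0.5439 to 0.7968 without 1 library, with an adjusted p under 0.05 only without VEGF Trap 2 (0.0171). The relation of Hsf1 to the other members ran from -0.3989 to 0.3359, with 0.1156 under library totals.

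With the replicate number as a block, 1 member, Hspd1, passed in each comparison with Fc (adjusted p = 0.0341 and 0.0313), and 334, 300 and 1 of all genes were called. The numbers share no stated origin. Pairs with the same number had correlated deviations of 0.013 to 0.112, 2 of 9 over 0.1. The 18 pairs with different numbers had -0.092 to 0.037, 0 of them over 0.1. In both other groups, 6 of 9 libraries correlated best with their own number. Whether libraries of the same number share an origin was not tested.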
